A study of Mus musculus with 9 samples.

Results

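Among the H3K4me3 regions that 3 mouse pancreatic cancer cell lines had in common, 1870 carried neither H3K27ac nor H3K27me3 in the line with Kdm6a. These regions were followed in the lines without Kdm6a. The H3K4me3 lists of the 3 lines were merged by overlap on autosomes 1 to 19, which gave 18007 merged regions, of which 11646 were overlapped by all 3 lists (shared regions). A shared region became a member when no H3K27ac region and no H3K27me3 region of the Kdm6a WT line overlapped it by at least 1 bp. Members were 16.1% of the shared regions (95% Wilson interval 15.4 to 16.7%) and 10.4% of all merged regions. Of the other shared regions, 8610 carried H3K27ac only in WT, 784 carried H3K27me3 only and 382 carried both.

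The series profiled 3 histone marks by chromatin immunoprecipitation and sequencing (ChIP-seq) in 3 lines (WT, male; KO, male; KO, female), which gave 9 libraries. Per the labels, KO lines lacked Kdm6a, the lines came from pancreas of mice with a mixed C57BL/6-SV129 background, and all were cultured in F12/DMEM with EGF and left untreated. The sources used here do not say whether a line was a single clone, how old the mice were or which driver alleles the tumours had. Each mark and line had 1 library and no female WT line was profiled, so every comparison below is between libraries, has no replicate check and carries no p-value. Kdm6a status and the pancreatic origin were not checked against marker genes, because no gene was placed on mm9, the build of the lists.

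H3K4me3 is laid down around transcription start sites, most of all at CpG-rich promoters, where it can be present without active transcription. H3K27ac is added to nucleosomes of active promoters and enhancers, while H3K27me3 is placed on the same lysine by the Polycomb complex PRC2 and accompanies silencing. Kdm6a (UTX) removes methyl groups from that lysine and belongs to the MLL3/MLL4 complexes, which methylate H3K4. A promoter with H3K4me3 and H3K27me3 is usually called bivalent, and a promoter with H3K4me3 alone has neither of the H3K27 states.

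The lists held between 13574 and 28184 autosomal regions and between 2394056 and 17976134 reads in regions. The WT lists of both H3K27 marks had the fewest reads in regions and the shortest covered length of the 3 lines. H3K27ac covered 109 Mb in WT, 145 Mb in male KO and 198 Mb in female KO. H3K27me3 covered 145, 237 and 329 Mb in the same order. The depth of each library is unknown, since the lists hold only reads in regions. A region can therefore be missing from a WT list because the mark was absent or because the library was too shallow, and these cannot be told apart. Because the members were chosen on the absence of both marks in WT, any difference from WT can only be a gain, and the KO states are given as a description.

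In the lists as deposited, most members carried H3K27ac in the KO lines, and fewer carried H3K27me3. Both statements changed when the KO lists alone were kept at or above their median count, which can only lower the shares. H3K27ac was then at 10.9% of members in male KO and 16.5% in female KO, and H3K27me3 at 11.7 and 29.1%. At members, KO regions of H3K27ac ranked low by reads and those of H3K27me3 high, so this cut fell mainly on H3K27ac. With all H3K27 lists cut in this way, 5090 members had H3K27ac at 32.7% in male KO and 30.7% in female KO. H3K27me3 was then at 8.25 and 22.7%, so H3K27ac stayed the more frequent mark, though not at most members. As deposited, H3K27ac was present at 1092 of the 1870 members in the male KO list, 58.4% (56.1 to 60.6%). The female KO list had it at 1154 members, 61.7% (59.5 to 63.9%). Over all 2654 shared regions without H3K27ac in WT, most of which are members, 56.4% had it in male KO and 52.7% in female KO. The regions with H3K27me3 only in WT, which are the rest of these 2654, had H3K27ac at 51.7% in male KO and 31.1% in female KO. Members and these bivalent-like regions thus differed more in the female KO list than in the male KO list. Over all shared regions, 12.9 and 12.0% had H3K27ac in male and female KO and not in WT.

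H3K27me3 was present at 277 members in the male KO list, 14.8% (13.3 to 16.5%), and at 684 in the female KO list, 36.6% (34.4 to 38.8%). Over all 10480 shared regions without H3K27me3 in WT, the shares were 6.79% in male KO and 22.9% in female KO. Set against all shared regions, those with H3K27me3 in a KO list and not in WT were 6.11% for male KO and 20.6% for female KO. The remainder of these 10480, the regions with H3K27ac only in WT, had H3K27me3 at 5.05% (4.61 to 5.54%) in male KO and 19.9% in female KO, with an upper bound of 20.8%. Members were therefore met by H3K27me3 more often than regions with H3K27ac in WT, in each KO list, and the intervals of the 2 classes did not overlap. With KO regions kept only if they reached the 5th percentile of the WT list in reads per kb after scaling to its depth, the shares of members were 13.4% in male KO and 22.9% in female KO. With KO lists of the covered length of WT they were 7.22 and 10%, so the distance between the KO lists depended on this choice. These intervals take regions as independent and reflect counting error alone.

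**Figure D1:**
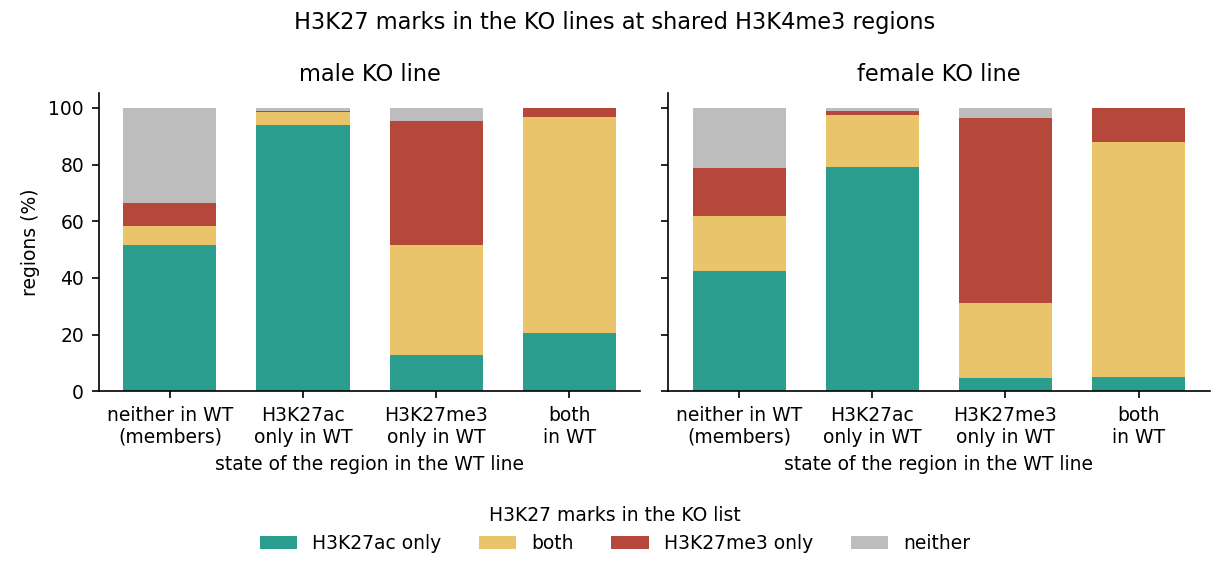
Share of shared H3K4me3 regions (percent, vertical axis) with H3K27ac only, both marks, H3K27me3 only or neither mark in the male KO list (left) and the female KO list (right), for the 4 states of the region in WT. Members, the first bar, keep the largest share without either mark, 33.5% in male KO and 21.1% in female KO. The other bars hold regions that carried a mark in WT by definition.

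Within a KO line the members split into all 4 states. In male KO, 967 members carried H3K27ac only (51.7%), 125 both marks (6.68%), 152 H3K27me3 only (8.13%) and 626 neither (33.5%). In female KO the same states held 791 (42.3%), 363 (19.4%), 321 (17.2%) and 395 members (21.1%). Regions with H3K27ac only in WT were left without either mark at 1.11% in male KO and 1.01% in female KO. H3K27me3 was less frequent where H3K27ac was present. Of the members with H3K27ac, 11.4% (9.69 to 13.5%) also had H3K27me3 in male KO, against 19.5% (16.9 to 22.5%) of those without H3K27ac. For female KO these shares were 31.5% (28.8 to 34.2%) and 44.8% (41.2 to 48.5%).

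Where a KO line had both marks at a member, the marks often had bases in common, and in most of these members their lengths left no other arrangement. In 336 of the 363 such members of female KO, 92.6% (89.4 to 94.8%), the 2 lists shared bases inside the member, with a median of 2.40 kb in common. In male KO this was so for 89 of 125 members, 71.2% (62.7 to 78.4%), with a median of 1.40 kb, and the other 36 had the marks side by side. The covered lengths of the 2 marks added up to more than the width of the member in 297 of the 363 (81.8%) and in 74 of the 125 (59.2%). Where the lengths could have been placed apart, bases were shared in 39 of 66 members of female KO, 59.1% (47.0 to 70.1%), and in 15 of 51 of male KO, 29.4% (18.7 to 43.0%). A list drawn from many cells does not show whether both marks lay on the same chromosome copy or in the same cell.

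The KO lists share the WT lists in these comparisons, so the states of the KO lines are given side by side. H3K27ac was in both KO lists at 848 members (45.3%), in male KO alone at 244 (13%), in female KO alone at 306 (16.4%) and in neither at 472 (25.2%). Over the 2654 shared regions without H3K27ac in WT, 38.9% had it in both KO lists. H3K27me3 was in both KO lists at 253 members (13.5%), in male KO alone at 24 (1.28%) and in female KO alone at 431 (23%). Over the 10480 shared regions without H3K27me3 in WT, 6.30% had it in both KO lists. The most frequent pair of states was H3K27ac only in both KO lines, at 588 members (31.4%). The next was neither mark in any list, at 256 members, 13.7% (12.2 to 15.3%). Of all shared regions, 282 had neither mark in either KO list, 2.42%, and the 256 members are among them. H3K27ac only in male KO with H3K27me3 only in female KO was found at 69 members, 3.69% (2.93 to 4.64%), and the reverse at 4 members, 0.214%. Over all shared regions these shares were 1.39 and 0.0687%, and over the regions with H3K27me3 only in WT 3.32% (2.27 to 4.81%) and 0.383%, and the intervals of members and bivalent-like regions overlapped for the first pair.

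Members were narrower and weaker in H3K4me3 than shared regions with H3K27ac. Their merged width had a median of 4.80 kb (quartiles 3 and 6.40 kb), against 7.80 kb (6.20 and 10 kb) for the regions with H3K27ac only in WT. The median member held 462 H3K4me3 reads for female KO, 238 for male KO and 334 for WT. The median region with H3K27ac only in WT held 1416, 621 and 1125 reads. Per kb of covered length, members had medians of 102 reads for female KO, 77.0 for male KO and 93.7 for WT, against 182, 119 and 174 for the regions with H3K27ac only. The bivalent-like regions with H3K27me3 only in WT were closer to the members, with a median merged width of 4.30 kb and 70.0, 76.0 and 63.8 reads per kb. Between 97.9 and 99.0% of the members consisted of a single H3K4me3 region in each list. A narrower region has less room to be met by a WT H3K27 region, so the smaller width of members is in part set by the rule.

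**Figure D2:**
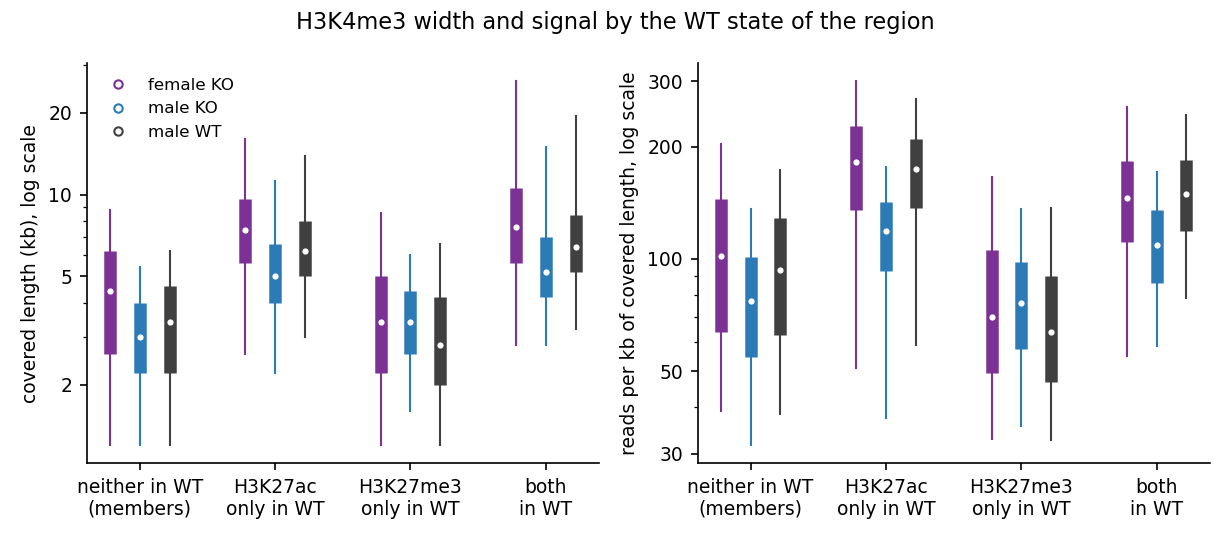
H3K4me3 covered length (left, kb, log scale) and reads per kb of covered length (right, log scale) at shared regions by their state in WT, by cell line. Circles are medians, thick bars span the quartiles and thin lines the 5th to 95th percentiles, and members lie below the regions with H3K27ac only in each list.

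Weak H3K4me3 was where members were concentrated. Shared regions were cut into 5 classes of near-equal size by their H3K4me3 reads in WT. Members made up 40.7% of the lowest class (14 to 338 reads), 29.8% of the second (339 to 750 reads), 8.76% of the third and 0.986% of the fourth. The highest class held 0 members of 2325 regions, which allows a share of up to 0.129%, taking 3 counts as the limit for a count of 0. The H3K4me3 signal and the absence of an H3K27ac call in WT thus moved together, and the parts of library depth and of region width in this were not tested.

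The H3K4me3 level of a member in WT also went with the marks it carried in the KO lines. Reads add up over the width of a region, and a wider region has more room to meet a mark. The part of width was not tested. H3K27ac in male KO was present at 41.9% of the members in the lowest class (38.8 to 45.0%), 71.5% in the second (68.1 to 74.8%), 87.3% in the third (82.0 to 91.2%) and 21 of 23 in the fourth. In female KO the shares were 43.1, 78.0 and 88.7%, and all 23 in the fourth. Regions with H3K27ac only in WT had H3K27ac at 94.6% in male KO and 92.0% in female KO already in the lowest class. At similar H3K4me3 reads, members carried H3K27ac less often in the KO lines than regions that had it in WT, in the lowest 3 classes of both lists. Members were chosen for lacking this mark in WT and the other regions for having it. The comparison therefore cannot tell whether anything beyond that choice set the direction. H3K27me3 in male KO was at 16.8, 14.2 and 6.86% of members in the lowest 3 classes, against 4.94, 6.45 and 5.98% of the regions with H3K27ac only in WT. The intervals of the third class overlapped in male KO (4.13 to 11.2% and 5.02 to 7.10%), and in the fourth 5 of 23 members, 21.7% (9.66 to 41.9%), stood against 4.09% (3.34 to 5%). For female KO the members had 39.0, 35.4 and 28.9%, against 16.9, 21.6 and 23.1%, and the intervals of the third class overlapped there (23.1 to 35.5% and 21.3 to 25%). In the fourth class it was at 9 of 23 members, 39.1% (22.2 to 59.2%), against 19.3% (17.7 to 21.0%), so the H3K27me3 share of members did not fall over all 4 classes.

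**Figure D3:**
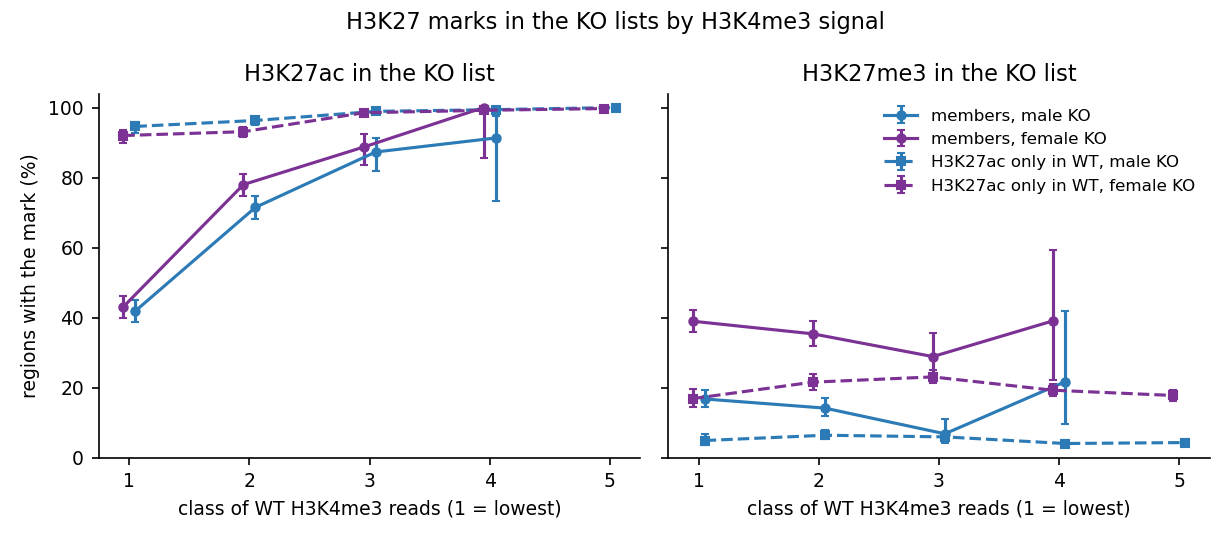
Share of regions with H3K27ac (left) and H3K27me3 (right) in the KO lists (percent, vertical axis) by class of the WT H3K4me3 reads, for members (solid) and regions with H3K27ac only in WT (dashed). Bars are 95% Wilson intervals, and the H3K27ac share of members climbs from 41.9 to 91.3% in male KO over the 4 classes that hold members.

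The 256 members without either mark in any list were the smallest. Their merged width had a median of 2.80 kb, against 5.80 kb for the 588 members with H3K27ac only in both KO lists, 3 kb for the 95 with H3K27me3 only in both, and 6.60 kb for the 69 with both marks in both. Their median H3K4me3 reads were 129.5, 96.5 and 124 in the female KO, the male KO and the WT list. The 588 members with H3K27ac only had 823, 352 and 524 reads. The 95 members with H3K27me3 only had 136, 120 and 171 reads, so their level was near that of the unmarked members in the 3 lists. A mark was counted from 1 bp of overlap, so a narrower member had less room to be met by one. The small width of unmarked members is thus in part set by the rule. The longest unmarked member lay on chromosome 16 from 93881201 to 93889400 (mm9, 1-based) and held 1207 H3K4me3 reads for female KO, 503 for male KO and 823 for WT over 8.2 kb. The next on chromosome 5, from 111304601 to 111312000, held 747, 378 and 373 reads.

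H3K27ac at the members came as short regions of low count in the KO lists. The 1116 male KO regions that met members had a median width of 2.80 kb and 152 reads, against 4.60 kb and 260 reads over the whole list. Their median percentile by reads was 29.9. In female KO the 1161 regions had 5.20 kb and 220 reads, against 7.80 kb and 363 reads, at a median percentile of 29.8. Their reads per kb were close to the list median, 53.1 against 56.1 in male KO and 43.2 against 46.4 in female KO. Compared with the H3K27ac of regions that carried it in WT, the level inside members was lower, with medians of 53.2 against 81.6 reads per kb in male KO and 43.3 against 62.6 in female KO. The H3K27ac of a member covered a median of 53.8% of its width in male KO and 81.5% in female KO.

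The H3K27ac of members was also scaled to the WT reads in the bins that all 3 H3K27ac lists hold. Its medians were then 23.8 reads per kb in male KO and 24.1 in female KO. The WT list had a median of 29.8 reads per kb and a 5th percentile of 16.7. So 19.4% (17.2 to 21.9%) of the members with H3K27ac in male KO, and 24.7% (22.3 to 27.3%) in female KO, reached the median level of a WT H3K27ac region. When the KO lists kept only regions at or above the WT 5th percentile after this scaling, 54.0 and 58.1% of the members still had H3K27ac in male and female KO. When they kept only regions at or above their own median read count, the shares were 10.9 and 16.5%.

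H3K27me3 at the members came from the longer and more heavily covered regions of the KO lists. The 287 male KO regions had a median width of 8.2 kb, against 5.20 kb over the list, and a median percentile by reads of 72.4. The 683 female KO regions had a median width of 17.2 kb, against 9 kb, and a percentile of 75.6. A longer region has more room to meet any given site, so these percentiles are not a comparison at equal length. H3K27me3 reads per kb inside members had medians of 19.4 in male KO and 46.8 in female KO. Scaled to the depth of the WT list these were 14.7 and 12.3, against a median of 14.8 and a 5th percentile of 11.0 over the WT list. The female KO value was thus nearer the 5th percentile. The WT median was reached by 48.4% (42.6 to 54.2%) of the members with H3K27me3 in male KO and 30.4% (27.1 to 34.0%) in female KO. Unscaled, the medians inside members were near those at regions with H3K27ac only in WT, 19.7 and 48.1, and below those at regions with H3K27me3 only in WT, 24.3 and 66.3.

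The 2 marks also differed in where the KO regions stood relative to WT regions. A KO H3K27me3 region at a member also met a WT H3K27me3 region elsewhere in 92 of 277 cases in male KO, 33.2% (27.9 to 39.0%), and in 270 of 684 in female KO, 39.5% (35.9 to 43.2%). For H3K27ac this was so in 30 of 1092 cases in male KO, 2.75% (1.93 to 3.89%), and in 105 of 1154 in female KO, 9.10% (7.57 to 10.9%). H3K27ac regions at members seldom met a WT H3K27ac region, and a larger share of the H3K27me3 regions met a WT H3K27me3 region. The rule bars WT regions of either mark inside a member, so only a KO region extending beyond it can meet one. KO H3K27ac regions at members were shorter than the H3K27me3 regions, as given above. The contrast is therefore not one at equal length, and the part of length was not tested.

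Distance to the nearest WT region of the same mark gave a like picture. Members lay a median of 78.0 kb from a WT H3K27me3 region and 30.3 kb from a WT H3K27ac region. Of the 226 members within 5 kb of a WT H3K27me3 region, 41.2% (34.9 to 47.7%) carried H3K27me3 in male KO and 80.1% (74.4 to 84.8%) in female KO. From 5 to 50 kb the shares were 16.3 and 46.2%, and beyond 50 kb they were 8.64% (7.12 to 10.5%) and 22.8% (20.5 to 25.4%). H3K27ac in male KO showed no such gradient, with 56.9% within 5 kb of a WT H3K27ac region, 58.6% from 5 to 50 kb and 58.6% beyond. In female KO H3K27ac went from 70.6% (64.3 to 76.3%) within 5 kb to 56.1% (52.3 to 59.8%) beyond 50 kb. At the edge of the rule, 7 members directly adjoined a WT region and 141 lay within 1 kb of one, while 9 non-members had an overlap of only 200 bp. The member on chromosome 2 from 150830801 to 150836800 adjoined a WT region, and it held 680 H3K4me3 reads in WT, 367 in male KO and 614 in female KO. Just outside, a region on chromosome 6 from 92159801 to 92169200 met WT H3K27me3 over 0.200 kb and held 849, 408 and 1311 reads in that order.

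Members were unevenly spread over the chromosomes. Chromosome 4 had 250 members among its 775 shared regions, 32.3% (29.1 to 35.6%), against 14.9% (14.2 to 15.6%) of the shared regions on the other chromosomes. Chromosome 13 followed with 25.1% (21.6 to 29.1%) and chromosome 16 with 21.4%, and chromosome 1 had the lowest share, 9.54% (7.59 to 11.9%). On chromosome 4, H3K27ac was at 64.3% of the shared regions in WT, 83.6% in male KO and 89.2% in female KO, and H3K27me3 at 4.77, 13 and 35.5%. In bins held by all 3 lists of a mark, the reads of chromosome 4 in female KO over WT were higher than on the median chromosome by 0.34 (log2) for H3K4me3, 0.35 for H3K27ac and 0.52 for H3K27me3. These values were above those of the other 18 autosomes, whose highest were 0.19, 0.15 and 0.28. In male KO they were 0.19, 0.12 and 0.31, of which H3K27ac lay within the range of the other autosomes (-0.16 to 0.13). Taken over whole shared regions instead of bins, the median H3K4me3 log2 ratio on chromosome 4 was 0.64 in female KO over WT and -0.08 in male KO over WT, relative to all shared regions. The reads of 3 marks on chromosome 4 thus stood lower in WT than in female KO relative to the other autosomes, and those of H3K4me3 and H3K27me3 lower in WT than in male KO in the bins, where members, defined by absence of marks in WT, were most frequent. The H3K4me3 reads of members in male KO over WT were not uniform along chromosome 4. This ratio stood well above the median of all shared regions in some stretches. In neighbouring stretches it stood near that median or below it, and many members there were below it. In female KO over WT the members mostly stood above the median in both kinds of stretch. Whole-chromosome values average over these stretches, and a ratio does not show which library departs. They therefore do not tell a lower chromosome 4 dosage in WT from a higher one in a KO line. Dosage along the chromosome, and its part in the share of members, was not tested. Members on chromosome 4 had H3K27ac at 77.6% in female KO (72.0 to 82.3%), against 59.3% off it (56.8 to 61.6%). In male KO the shares were 60.4 and 58.1%.

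**Figure D4:**
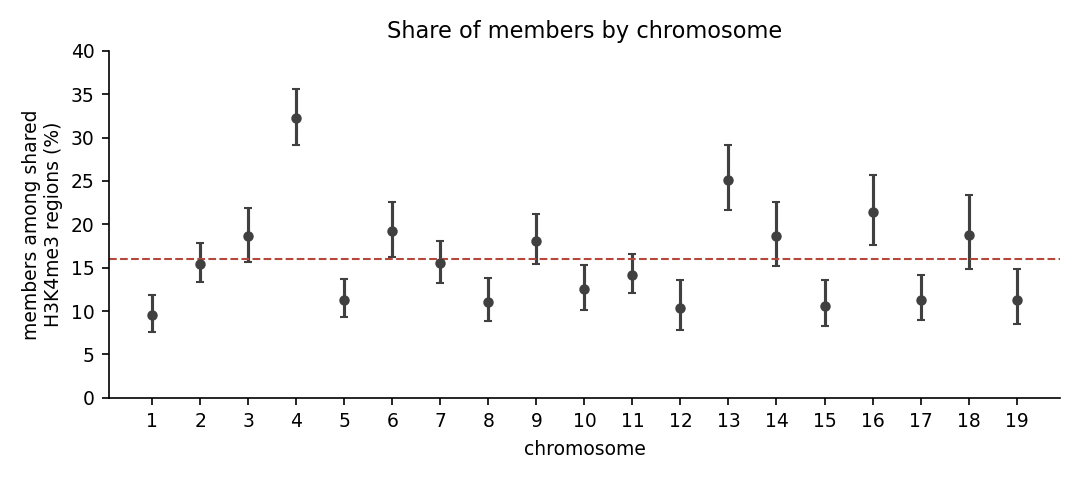
Members as a share of the shared H3K4me3 regions (percent, vertical axis) on each autosome (horizontal axis). Bars are 95% Wilson intervals and the dashed line is the share over all autosomes, 16.1%, with chromosome 4 highest at 32.3%.

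H3K4me3 itself was compared between lines at the members, relative to all shared regions, since library totals are unknown. Log2 ratios of reads were centred on the median of the 11646 shared regions, which was -0.82 for male KO over WT and 0.31 for female KO over WT. Members had a median of 0.22 (log2) in male KO over WT, with quartiles of -0.06 and 0.71, and 0.09 in female KO over WT, with quartiles of -0.37 and 0.56. Set against other shared regions of similar WT H3K4me3 reads the medians were 0.15 and 0.34, which turns the order of the KO lines. Per kb of covered length the female KO value was 0.03. A difference of at least 2-fold upwards in male KO was found at 314 members, 16.8%, against 7.70% of all shared regions. Downwards it was found at 14 members, 0.749%, against 1.79%. In female KO, 183 members were higher by that fold (9.79%, against 4.06%) and 177 were lower (9.47%, against 7.76%). Members were concentrated at low WT H3K4me3 reads, and these 2-fold shares were not set against regions of similar reads. Regions with H3K27me3 only in WT had a median of 1.14 in male KO and 0.01 in female KO, so the shift of members in male KO was smaller than theirs.

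Between members, H3K4me3 in female KO was higher where that line had H3K27ac, and in male KO the difference was small. For female KO over WT, the 1154 members with H3K27ac in female KO had a median of 0.27 (log2) and the 716 without it -0.37. Split by H3K27ac in the male KO list, the same ratio had medians of 0.16 with the mark and -0.03 without it. For male KO over WT, the medians were 0.25 with H3K27ac in male KO and 0.16 without, and 0.18 with H3K27ac in female KO and 0.28 without. By their full state in male KO, the medians were 0.24 for H3K27ac only, 0.25 for H3K27me3 only, 0.45 for both marks and 0.14 for neither. Members with H3K27me3 only thus stood as high as those with H3K27ac only in male KO. In female KO the states had 0.27 for H3K27ac only, -0.46 for H3K27me3 only, 0.27 for both and -0.33 for neither, so there the members with H3K27ac were the higher ones with or without H3K27me3.

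The ratio of female KO to male KO has no WT reads in it, although WT lists enter the choice of members and of the shared regions used for centring. It separated the members by the list that held H3K27ac. Centred on all shared regions, members with H3K27ac in male KO alone had a median of -1.13 (log2), with quartiles of -1.91 and -0.59. Members with H3K27ac in female KO alone had a median of 0.22, with quartiles of -0.12 and 0.67. The interquartile ranges of these groups did not overlap. Members with H3K27ac in both lists stood between, at -0.02, and those with it in neither at -0.55. A 2-fold lower level in female KO was found at 135 of the 244 members with H3K27ac in male KO alone, 55.3%. The share was 10.4% over all shared regions and 17.6% over all members. It was 29.0% for members with H3K27ac in neither list and 3.27% for those with it in female KO alone. These shares were not taken at similar H3K4me3 reads. Higher levels by that fold were found at 0 of the 244 and at 46 of the 306, 15.0%, against 3.13% of all shared regions. A count of 0 among 244 allows a share of up to 1.23%, with the same limit of 3 counts.

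The groups differed in the reads of each list. In male KO the members with H3K27ac in male KO alone and in female KO alone had medians of 226 and 206 H3K4me3 reads over 3 and 2.90 kb. In female KO these groups had medians of 179.5 and 562 reads over 2.60 and 5 kb. The gap in female KO reads lay in covered length as well as in reads per kb, which had medians of 71.5 and 109. In WT the groups had medians of 242 and 332 reads. Against WT and centred, the groups had medians of 0.45 and 0.06 (log2) in male KO and of -0.46 and 0.29 in female KO, so each KO list was relatively higher at the members where it alone had H3K27ac. Taken per kb of covered length, the medians of the female KO over male KO ratio were -0.51 and 0.09. Without chromosome 4 they were -1.07 and 0.09, so without chromosome 4 the value for female KO alone was smaller by over 1.5 times.

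H3K27me3 went with smaller differences than H3K27ac once H3K27ac was held fixed. Among members with H3K27ac in both KO lists, the ratio of female KO to male KO had a median of -0.03 (log2) where H3K27me3 was in female KO alone (180 members) and -0.00 where it was in neither (588 members). Among members with H3K27ac in neither list the medians were -0.62 (114 members) and -0.50 (256 members). Members with H3K27ac in male KO alone had a median of -1.37 where a KO list had H3K27me3 (114 members, 64.9% of them 2-fold lower in female KO) and -0.93 where neither had it (130 members, 46.9%). In this group H3K27me3 thus went with a lower ratio. Those with H3K27ac in female KO alone had 0.15 with H3K27me3 (118 members) and 0.24 without it (188 members). Regions with H3K27ac only in WT gave values in the same order, -1.43 for H3K27ac in male KO alone (161 regions) and 0.37 for female KO alone (81 regions), so this pattern was not particular to the members.

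**Figure D5:**
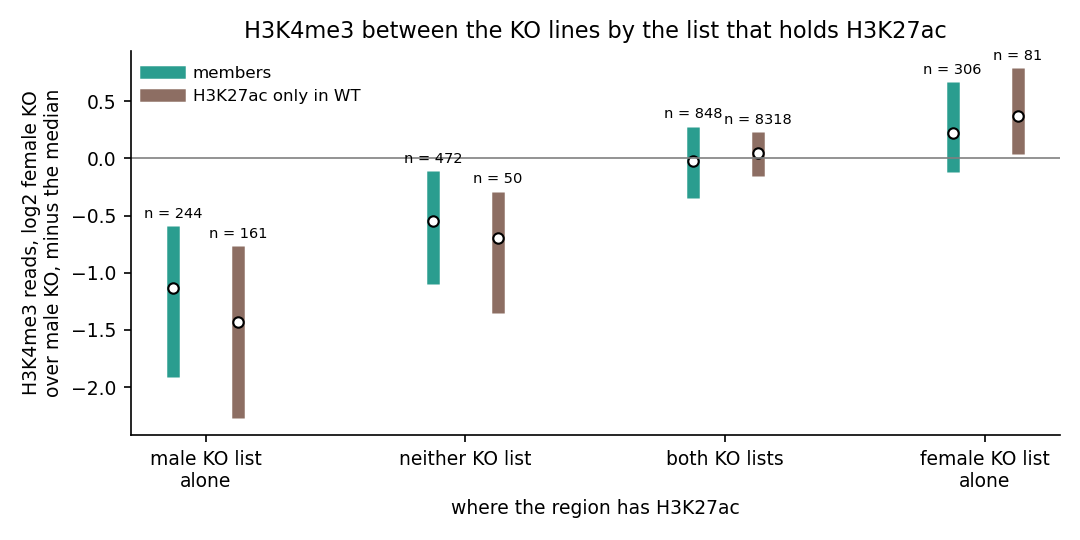
H3K4me3 reads in female KO over male KO (log2, centred on the median of all shared regions, vertical axis) by the KO list that holds H3K27ac, for members and for regions with H3K27ac only in WT. Circles are medians and bars span the quartiles, and among the members those with H3K27ac in male KO alone lie lowest, at -1.13 (regions with H3K27ac only in WT are at -1.43 there).

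Single members show these patterns in their reads. The highest H3K4me3 count of any member in WT was on chromosome 19 from 38125001 to 38133200, with 1546 reads, beside 777 reads for male KO and 2212 for female KO. H3K27ac covered 7.40 kb of its 8.2 kb in female KO and 5.20 kb in male KO, and no list had H3K27me3 there. The second, on chromosome 19 from 46833801 to 46842000, held 1918 H3K4me3 reads for female KO, 722 for male KO and 1534 for WT. It carried both marks in both KO lines, with H3K27me3 over its full 8.2 kb in female KO and over 1.20 kb in male KO.

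The members with the most H3K27ac in both KO lists were covered by it over most of their width. That on chromosome 5 from 77783201 to 77790800 was covered over its full 7.60 kb in both KO lines, by regions that held 7091 reads in female KO and 5962 in male KO over their whole length. Its H3K4me3 reads were 598 for female KO, 166 for male KO and 256 for WT. On chromosome 6 from 34545601 to 34555400, H3K27ac covered 9.80 kb in female KO and 9 kb in male KO. H3K4me3 there held 1548, 687 and 155 reads, which is a log2 difference from WT of 3.01 in female KO and 2.97 in male KO after centring. The WT list was lowest there, and both KO lists were high for both active marks.

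The members with the longest H3K27me3 in both KO lists, without H3K27ac, did not share a direction of H3K4me3. On chromosome 14 from 65878601 to 65883400, H3K27me3 covered the full 4.80 kb in both KO lines, and H3K4me3 held 98 reads for female KO, 243 for male KO and 657 for WT. The centred log2 difference from WT was -3.06 in female KO and -0.62 in male KO. The member on chromosome 10 from 117064001 to 117070000 held 153, 277 and 728 H3K4me3 reads, with differences of -2.56 and -0.58. The member on chromosome 3 from 94214001 to 94219800 held 203, 231 and 634 reads. In these 3 members WT had the most H3K4me3 and the female KO list the least. On chromosome 11 from 98841001 to 98848000, H3K27me3 covered 7 kb in female KO and 6.60 kb in male KO. H3K4me3 there was higher than in WT in both KO lines relative to the median, with 660, 300 and 266 reads and differences of 1 and 0.99.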

How the data were processed

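ChIP-seq for H3K4me3, H3K27me3 and H3K27ac was deposited as 9 lists of enriched regions, 1 per library. Bowtie 1.1.2, SICER 1 and genome build mm9 are named in the submitters' processing notes. The authors' deposited lists give the position of each region and a whole number, read here as its raw read count. No header names that column. Neither the control library nor the false discovery rate is stated in the sources used here.

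Regions of chromosomes 1 to 19 were used unfiltered. Overlaps were computed in Python (3.11.15) using pandas (2.3.3), numpy (2.4.6) and, for intervals, scipy (1.17.1), drawn with matplotlib (3.10.9) and checked with bedtools 2.31.1, which gave 0 differing members. On simulated lists 200 of 200 planted members and 80 of 80 planted gains were recovered. Intervals on shares are 95% Wilson intervals, and limits for a count of 0 take 3 counts. Log2 ratios of reads were centred on the median shared region, and 2-fold was the call. Depth scaling set the KO reads equal to the WT reads in 200 bp bins held by all 3 lists of a mark. It stands in for library depth, which is unknown, and also removes any change of the mark common to these bins. The ratio of the WT to the KO reads in those bins was 0.448 for male KO H3K27ac and 0.557 for female KO H3K27ac, and 0.761 and 0.262 for H3K27me3.

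The members, groups and measures were chosen with earlier results of these data known. Regions were named by rule: the 5 members with the most WT H3K4me3 reads, the most H3K27ac in both KO lists without H3K27me3, the longest H3K27me3 in both KO lists without H3K27ac, and the greatest length without marks, plus 3 regions on each side of the rule's edge. From these the clearest are described. The gene and promoter tables used here belong to GRCm38.p6, so no gene was named and no sequence is shown. The gene groups planned for members holding a gene start were not counted for that reason.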

Additional observations from a re-analysis of the deposited data

How the results depend on the processing

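With 1 library per mark and line, no library could be left out. No paired analysis was possible because no group has a second replicate. Shares of members are given in the order H3K27ac male KO, H3K27ac female KO, H3K27me3 male KO, H3K27me3 female KO, H3K27ac in both, H3K27me3 in both, neither mark in any list. As reported they were 58.4, 61.7, 14.8, 36.6, 45.3, 13.5 and 13.7% of 1870 members. KO lists at or above their median count gave 10.9, 16.5, 11.7, 29.1, 6.36, 10.3 and 55.0%. KO lists with the covered length of WT gave 10.8, 6.58, 7.22, 10, 2.73, 3.48 and 73.6%. Only the KO lists lose regions in both settings, which can only lower the shares with a mark and raise the share with neither. All H3K27 lists at or above their median count gave 5090 members with 32.7, 30.7, 8.25, 22.7, 20.4, 7.35 and 42.1%. KO lists scaled to the depth of WT gave 54.0, 58.1, 13.4, 22.9, 41.3, 9.73 and 20%. The order of the KO lines for H3K27ac turned under 2 of these settings, and for H3K27me3 under none of them. The order of the marks turned as well. H3K27me3 was at more members than H3K27ac in both KO lines with KO lists at or above their median count. With the covered length of WT this held in female KO alone. With all H3K27 lists at or above their median count it held in neither KO line. A required cover of 50% of the region gave 5549 members, since WT regions with less cover no longer removed a region, with 50.2, 76.6, 5.30, 16.5, 44.2, 4.87 and 11.4%. H3K4me3 lists at or above their median count left 216 members with 89.8, 95.4, 6.48, 27.8, 87.0, 5.09 and 1.39%. Counting WT regions within 5 kb as present left 1452 members, with H3K27me3 at 11.2% in male KO, 30.8% in female KO and 9.99% in both. Omission of chromosome 4, chosen after seeing the data, left 1620 members, with H3K27ac in female KO at 59.3%. Merging H3K4me3 regions closer than 1 kb gave 1774 members and kept the 7 shares within their intervals.

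The median H3K4me3 log2 ratio of members was 0.22 for male KO over WT and 0.09 for female KO over WT. Against other shared regions of similar WT H3K4me3 reads it was 0.15 and 0.34, so the order of the KO lines turned. Per kb of covered length the female KO value was 0.03, and without chromosome 4 it was 0.04. For female KO over male KO, members with H3K27ac in male KO alone had -0.51 per kb and -0.97 with depth-scaled lists, against -1.13. Those with H3K27ac in female KO alone had 0.09 per kb and 0.09 without chromosome 4, against 0.22. The alternatives for female KO over male KO, and those without chromosome 4, were chosen after seeing the data. None of these medians changed sign. The causes of these shifts were not tested, and no value here separates weak marks missed in the WT lists from marks absent there.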
